A study of Mus musculus with 6 samples.

Results

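The S100 genes encode small calcium-binding proteins, and 8 of them, S100a1, S100a4, S100a6, S100a8, S100a9, S100a10, S100a11 and S100a13, were examined in mouse bone marrow monocytes (named BMDM in the study) and brainstem microglia (BSM). The members were picked out by gene symbol, and are 8 of the 35237 genes in the deposited table of expression values. The table holds 9 further genes whose symbol begins with S100. RNA-Seq libraries were available from 3 independent sets of each cell type, all from unmanipulated C57BL/6 mice at 6 weeks of age. BMDM were sorted by flow cytometry as CD11b+ CD45high CD115+ Ly6G- cells from bone marrow, and BSM as CD11b+ CD45low CD115low Ly6G- cells from brain, with several mice pooled for each set. By the labels, the mice of replicate 1 were male and those of replicates 2 and 3 were female in both groups, whereas the study's text speaks of male mice only. The comparison addresses which transcripts separate monocytes of the marrow from the resident macrophages of the brain.

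Each S100 protein carries a pair of EF-hands, helix-loop-helix motifs that bind calcium, and most work as dimers. On binding calcium the dimer exposes a surface that docks onto partner proteins, among them annexins, myosin and other proteins of the membrane and cytoskeleton. S100a8 and S100a9 form calprotectin, an abundant protein of neutrophils and monocytes that can be released and act as an alarm signal at Toll-like receptor 4 and the receptor for advanced glycation end products. Most of the genes lie together in the epidermal differentiation complex, and S100a8 and S100a9 have long been used to mark recently recruited myeloid cells.

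All 8 S100 genes were higher in BMDM than in BSM, and no BSM library reached the level of any BMDM library for any of them. The levels are given as FPKM, sequenced fragments scaled by the length of the gene's exons and by the mapped reads of the library. On the log2(FPKM + 1) scale used for the test below, S100a11, a partner of annexin A1, differed most, at 1002 ± 151 FPKM (SD, n = 3) in BMDM and 1.84 ± 1.97 in BSM (SD, n = 3), and S100a13 differed least, at 3.50 ± 0.90 and 0.61 ± 0.58 (SD, n = 3 each). Summed over the 8 genes, the S100 transcripts took 0.719%, 0.717% and 0.538% of all FPKM in the BMDM libraries and 0.0019%, 0.0064% and 0.0035% in the BSM libraries. S100a6 and S100a8 were listed at 0 in every BSM library and S100a4 and S100a9 in 2 of them, so that ratios of the groups cannot order these members. In sorted bulk samples, fewer cells of a type that carries a transcript and less of that transcript per cell cannot be told apart.

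**Figure D1:**
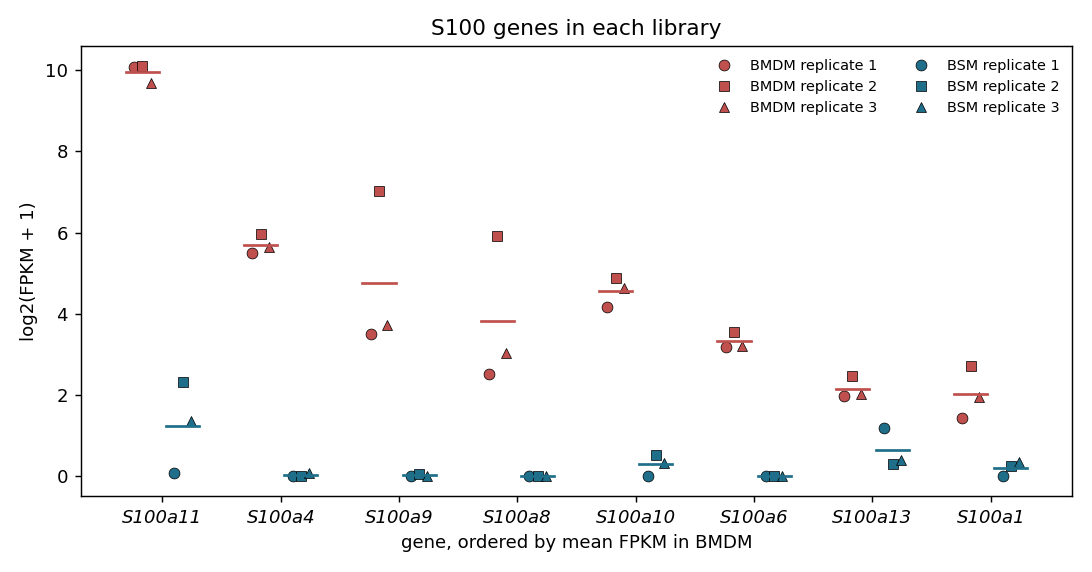
Level of each S100 gene in every library, as log2(FPKM + 1) on the vertical axis, with the genes ordered by their mean FPKM in BMDM. Each point is a library, BMDM in red and BSM in blue, and each line is the mean of 3 libraries. For every gene the 3 BMDM points lie above the 3 BSM points, and BMDM replicate 2 lies far above the other BMDM libraries for S100a8 and S100a9.

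The groups were compared with limma on log2(FPKM + 1) across 6364 genes that reached 3 FPKM in some library. All 8 members were called higher in BMDM at an adjusted p-value under 0.05. Of all genes tested, 54.5% were called in either direction, 45.3% with BMDM above BSM and 9.22% with BSM above BMDM. Every BMDM library lay above every BSM library for 55.2%, and the reverse held for 11.6%. All 8 members reached 3 FPKM in a BMDM library and 1 of them, S100a11, also did so in a BSM library. The other 7 therefore entered the test through the group in which they were high. Of the 2124 tested genes under 3 FPKM in every BSM library, 74.8% were called higher in BMDM. A call by itself therefore sets the members little apart, and their values are described below by size and by library.

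Log2 fold changes are on the log2(FPKM + 1) scale, which understates the change of low genes. Their median was 0.81 over all genes tested and 1.42 over the 2124 genes under 3 FPKM in every BSM library. The 7 members among the latter had a median of 3.82, as a description only, since they had to be high in BMDM to be tested. Ordered by log2 fold change, with the highest first, S100a11 took rank 1 of the 6364 genes, S100a4 rank 29, S100a9 rank 59, S100a10 rank 91, S100a8 rank 146, S100a6 rank 234, S100a1 rank 1123 and S100a13 rank 1552. The second deposited table, made by ALEXA-Seq from the same libraries, is on a linear scale of unnamed unit, and was tested separately. All 8 members were also called there with BMDM above BSM and without overlap. Among the 6364 genes tested there, 47.9% were called, 37.1% with BMDM above BSM and 10.9% with BSM above BMDM, and 51.5% had every BMDM library above every BSM library. Both tables rest on the same reads and are not independent measurements.

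Differences on the ALEXA-Seq scale, as log2(value + 1), cannot be compared in size with those in FPKM, because the values are larger and the added 1 weighs less. S100a11 was at 14439, 14223 and 11546 in BMDM and at 0, 66.5 and 26.5 in BSM, a log2 fold change of 10.08 ± 1.43 (limma adjusted p = 0.00151). S100a4 followed at 9.77 ± 0.46 (adjusted p = 3.19e-05), with 1025, 1537 and 1116 in BMDM and 0, 0 and 1.62 in BSM. The differences of S100a9, S100a8 and S100a6 were 8.87, 7.79 and 7.77, and those of S100a10, S100a1 and S100a13 were 6.50, 4.31 and 2.59. S100a8 and S100a6 were again at 0 in the 3 BSM libraries, and S100a9 in 2 of them.

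**Figure D2:**
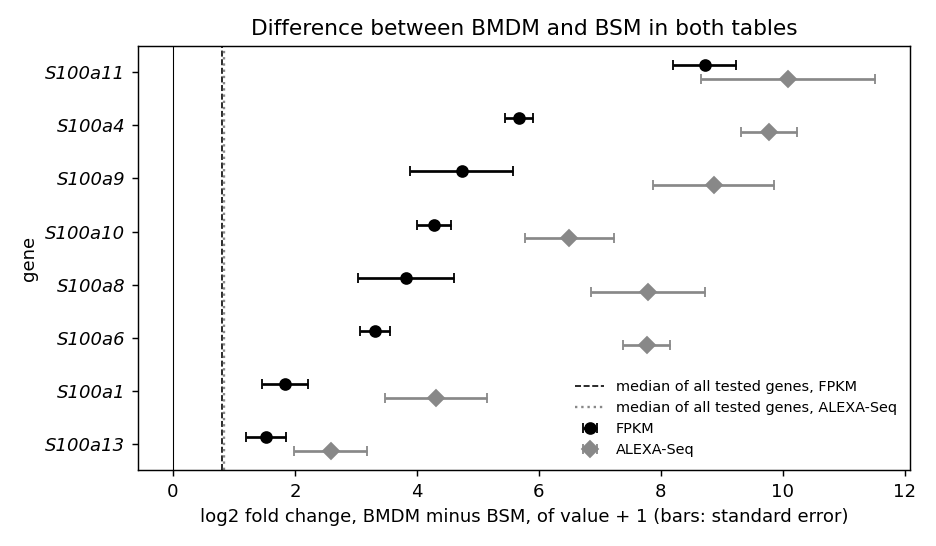
Log2 fold change of each S100 gene (BMDM minus BSM, of value + 1, with its standard error as bars) in the FPKM table (black circles) and the ALEXA-Seq table (grey diamonds). Vertical lines mark 0 and the medians of all tested genes in each table, 0.81 and 0.84. All points lie to the right of these lines, with FPKM differences from S100a13 at 1.52 to S100a11 at 8.72.

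Facts of the libraries bear on these values. Monocyte genes, summed over 8 markers such as Ccr2 and Ly6c2, gave 468 to 476 FPKM in the BMDM libraries and 0.039 to 1.08 in the BSM libraries. Microglia genes, summed over 9 markers such as P2ry12 and Tmem119, gave 17.6 to 19.7 FPKM in BMDM and 804.9 to 896.9 in BSM. All 8 monocyte markers were called higher in BMDM and all 9 microglia markers higher in BSM. BSM replicate 1 stood apart from the other BSM libraries, with 472 of the tested genes at 0 against 115 and 93, and 6 of the 8 S100 genes at 0. The study's list of RNA quality gives this library by far the lowest RNA amount and integrity of the 6, and the part of RNA quality in its values was not tested. Itgam, which encodes the CD11b used in the sort, was listed at 0 in BSM replicate 2 and at 176 and 100.5 FPKM in the other BSM libraries, so a listed 0 is not proof of absence. Gapdh, a gene used in every cell, was listed at only 0.487 to 1.75 FPKM in all 6 libraries. The libraries also differed in total, 163199 to 194184 summed FPKM in BMDM and 68288 to 75021 in BSM. Scaling all libraries to the same sum moved the median log2 fold change of all genes from 0.81 to -0.22, and changes of the members relative to that median are given below.

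All 8 members lie on chromosome 3, in positions given here on build mm9 as in the files, counted from 1. S100a1 (90314815 to 90318314, minus strand), S100a13 (90318357 to 90328503, plus), S100a4 (90407692 to 90409967, plus), S100a6 (90416816 to 90418336, plus), S100a8 (90472993 to 90473951, plus) and S100a9 (90496554 to 90499643, minus) form a stretch of 184.8 kb. S100a11 (93324410 to 93330209, plus) and S100a10 (93359002 to 93368565, plus) lie together 2824.8 kb further on. Strands were taken from GENCODE M21. None of the 65 genes in the gap between the stretches reached the FPKM minimum.

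The first stretch holds 13 genes, of which 11 are S100 genes. The 6 that were tested are the members themselves, so their calls repeat those given above and do not describe the stretch. Between them lie S100a3, S100a5 and S100a16, which were listed at 0 in all 6 libraries, and S100a14 and S100a7a, which were listed at no more than 0.151 FPKM in BMDM and at 0 in BSM. On the other side of S100a1 the neighbours were present in both cell types. Snapin, which encodes a protein of the vesicle fusion machinery, was at 12.1, 16.2 and 13.3 FPKM in BMDM and 11.3, 9.90 and 9.76 in BSM (log2 fold change 0.38, limma adjusted p = 0.179). The adjacent 2500003M10Rik gave a log2 fold change of 0.60 (adjusted p = 0.122) and Ilf2 gave 0.50 (adjusted p = 0.633). Both were called higher in BMDM without BSM replicate 1, at 0.77 (adjusted p = 0.0465) and 1.53 (adjusted p = 0.0239). S100a1 and S100a13 point away from each other with 42 bases between them.

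**Figure D3:**
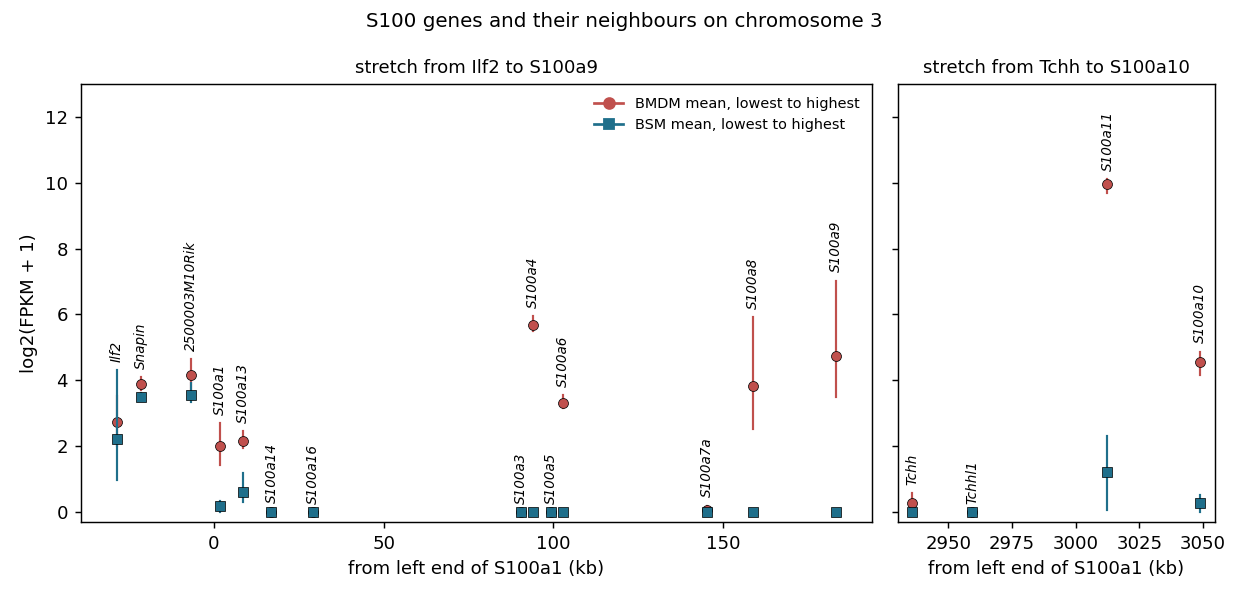
Level of the named genes around the S100 genes on chromosome 3, as log2(FPKM + 1), against the distance in kb of each gene's middle from the left end of S100a1. Points are group means (BMDM red circles, BSM blue squares) and vertical lines run from the lowest to the highest of 3 libraries. Ilf2, Snapin and 2500003M10Rik are present in both cell types, whereas S100a4, S100a6, S100a8 and S100a9 are at or near 0 in BSM, with S100a3, S100a5 and S100a16 at 0 among them.

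The sequence before the start of the genes is shown for the 3 members at or near 0 in BSM that carry the letters of a TATA box close to the start, and for S100a11, the member with the highest level. These are the 250 bases before each RefSeq start on build GRCm38.p6, read 5′ to 3′ in the direction of the gene. Promoters were given for 7 of the 8 members, all but S100a10. Capitals mark the TATA box TATAAA in S100a4 and S100a8, the C/EBP core TTGCNNAA in S100a9 and the AP-1 core TGANTCA in S100a11.
S100a4 (chr3:90603520-90603769, plus strand): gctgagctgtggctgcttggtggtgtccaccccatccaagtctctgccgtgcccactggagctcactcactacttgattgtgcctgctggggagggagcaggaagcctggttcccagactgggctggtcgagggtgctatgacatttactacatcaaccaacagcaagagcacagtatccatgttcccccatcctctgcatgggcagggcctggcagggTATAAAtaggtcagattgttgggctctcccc
S100a8 (chr3:90668821-90669070, plus strand): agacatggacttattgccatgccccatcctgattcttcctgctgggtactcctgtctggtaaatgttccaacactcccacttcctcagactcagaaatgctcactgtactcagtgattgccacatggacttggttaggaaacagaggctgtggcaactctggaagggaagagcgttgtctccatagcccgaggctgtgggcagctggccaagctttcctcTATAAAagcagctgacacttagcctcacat
S100a9 (chr3:90695722-90695971, minus strand): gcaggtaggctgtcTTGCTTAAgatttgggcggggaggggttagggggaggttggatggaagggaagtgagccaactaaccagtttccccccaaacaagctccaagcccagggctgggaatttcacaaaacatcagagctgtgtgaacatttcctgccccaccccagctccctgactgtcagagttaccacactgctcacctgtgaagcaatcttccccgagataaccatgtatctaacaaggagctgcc
S100a11 (chr3:93520246-93520495, plus strand): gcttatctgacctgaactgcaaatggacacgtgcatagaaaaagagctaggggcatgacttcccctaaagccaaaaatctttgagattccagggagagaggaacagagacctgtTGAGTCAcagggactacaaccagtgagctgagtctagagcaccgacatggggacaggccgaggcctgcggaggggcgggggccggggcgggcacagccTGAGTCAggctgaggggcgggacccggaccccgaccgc

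TATAAA began 31 bases before the start of S100a4 and 30 bases before that of S100a8. In S100a9 it lay at bases 1 to 6 after the annotated start, outside the printed window. On the sense strand within 50 bases of the start, TATAAA was present in 3.40% of all 32851 promoters and in 3 of the 7 members' promoters. S100a11 held no TATAAA in the 300 bases searched (250 before and 50 after the start) but 2 copies of the AP-1 core, which was present in 7.81% of all promoters. The C/EBP core in S100a9 was present in 10.8%. The PU.1 core GAGGAA, bound by the factor that directs myeloid development, was found in S100a4, S100a8 and S100a11 and in 28.3% of all promoters, and the GC box GGGCGG in S100a9 and S100a11 and in 35.7%. Both strands were searched and no match overlapped a match of another motif. S100a4, S100a8 and S100a9 had 2 CpG dinucleotides each in the 250 bases, S100a6 had 3, and S100a1, S100a11 and S100a13 had 8, 11 and 13, against a median of 6 over all promoters. These matches are descriptions of the letters, and binding was not measured.

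S100a8 and S100a9, the subunits of calprotectin, were present in every BMDM library and at or near 0 in BSM. By level among all genes of BMDM replicates 1, 2 and 3, S100a8 ranked 3289, 285 and 2711, and S100a9 ranked 1763, 102 and 1707. S100a8 was at 4.73, 59.3 and 7.15 FPKM in BMDM replicates 1, 2 and 3 and at 0 in all 3 BSM libraries. S100a9 was at 10.2, 130 and 12.2 FPKM in BMDM and at 0, 0.0226 and 0 in BSM. BMDM replicate 2 thus carried far more of both transcripts than the other BMDM libraries, and the groups did not overlap in either gene. The log2 fold change was 3.82 ± 0.79 (SE) for S100a8 (limma adjusted p = 0.00496) and 4.73 ± 0.85 for S100a9 (adjusted p = 0.00259).

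S100a8 and S100a9 kept a similar proportion across the BMDM libraries despite this difference in level. The ratio of S100a9 to S100a8 was 2.16, 2.19 and 1.70 in FPKM and 2.65, 2.85 and 1.92 in the ALEXA-Seq table. In BSM both genes were at or near 0, so that no ratio could be formed there or compared with BMDM.

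The excess in BMDM replicate 2 was larger for S100a9 and S100a8 than for any other of the 4626 genes at or above 3 FPKM in the mean of BMDM replicates 1 and 3. Replicate 2 exceeded that mean 11.6-fold for S100a9 and 9.98-fold for S100a8, against a median of 1.08-fold over those genes. This ranking was made after the values were seen and depends on that minimum: Ngp, at 26.2-fold, and Camp, at 16.8-fold, both genes of granulocytes, fell below it. Among the other members the ratio was 2.46 for S100a1 and between 1.14 for S100a11 and 1.52 for S100a13.

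Most listed genes of granulocytes and their precursors moved with S100a8 and S100a9 between the BMDM libraries. Of 15 granulocyte genes, 14 were highest in BMDM replicate 2, Csf3r being the exception, with a median ratio of 5.73 to the mean of replicates 1 and 3. Mmp8 was among the 14 but nearly level, at 13.9, 14.7 and 14.5 FPKM, a ratio of 1.04 against the median of 1.08 over the 4626 genes. Summed over the 15 genes, the level was 81.3, 416 and 126 FPKM in BMDM and 20.2, 15.2 and 11.5 in BSM. In BSM replicates 1, 2 and 3, 14, 10 and 11 of the 15 were listed at 0. The BSM replicate 1 sum thus came from the only gene of the list above 0 there, and the BSM sums do not describe the list as a whole. Ngp, a granule protein of maturing neutrophils, was at 2.44, 77.1 and 3.44 FPKM in BMDM, and Elane, the neutrophil elastase, at 9.75, 56.0 and 10.7. Mpo, the myeloperoxidase of primary granules, was at 32.7, 181 and 67.1. Ly6g, the surface marker excluded in the sort, was at 0, 0.293 and 0 FPKM. The sum of the 8 monocyte genes was 468, 472 and 476 FPKM and did not follow this order.

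Lymphocyte genes summed to 0.520, 8.50 and 1.29 FPKM over 7 markers in BMDM, with Nkg7 and Cd79a the highest, and Hbb-b2, a haemoglobin chain, was at 11.9, 43.2 and 7.61 FPKM. The part of other cells in the S100a8 and S100a9 values of BMDM replicate 2 was not tested. Without that library the log2 fold change was 2.77 for S100a8 and 3.59 for S100a9, and without BMDM replicate 1 it was 4.47 and 5.36, and both were still called. In BMDM replicates 1 and 3 alone, S100a8 and S100a9 remained above every BSM library. Of the 13 granulocyte genes tested, 8 were called higher in BMDM by limma, and 12 without BMDM replicate 2. The same fits called 2883 and 2313 of all 6364 genes higher in BMDM. Most listed granulocyte genes were at 0 in each BSM library, as given above. A gene under 3 FPKM in every BSM library enters the test only through BMDM. Of the 2124 such genes, 74.8% were called higher in BMDM with all libraries, so the count does not set the list apart. No granulocyte gene was called higher in BSM in the deposited FPKM, with 0 at an unadjusted p under 0.05 and 0 in the ALEXA-Seq values, although 1 was after each of the 3 scalings.

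**Figure D4:**
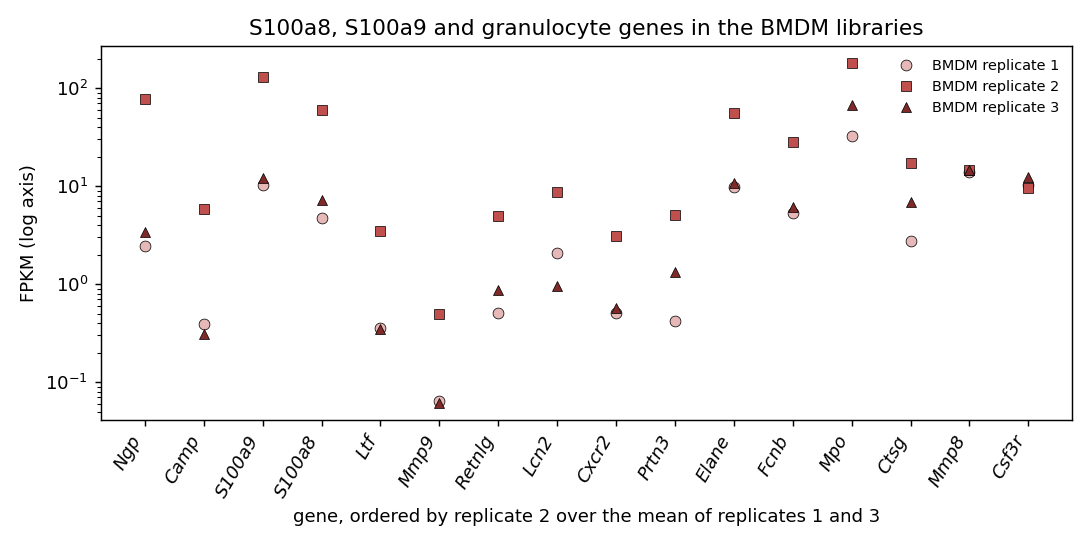
FPKM (log axis) of S100a8, S100a9 and granulocyte genes in the 3 BMDM libraries, ordered by the ratio of replicate 2 to the mean of replicates 1 and 3. Ly6g is left out, being at 0 in replicates 1 and 3. Replicate 2 is highest for all genes shown but Csf3r, and S100a9 and S100a8 follow Ngp and Camp in the order.

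S100a10 and S100a11 are the members best known for binding annexins. S100a10, also called p11, differs from the rest of the family in that its EF-hands no longer respond to calcium, and it joins annexin A2 in a complex at the inner face of the membrane. S100a10 was at 17.1, 28.4 and 23.8 FPKM in BMDM and at 0, 0.434 and 0.249 in BSM. All BMDM libraries were high and the highest BSM value was far under the lowest of them. The ratio of means was 101, and the log2 fold change was 4.28 ± 0.28 (limma adjusted p = 2.04e-05).

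S100a11, which binds annexin A1 and takes part in membrane repair and endocytosis, was at 1084, 1094 and 828 FPKM in BMDM and at 0.0401, 3.95 and 1.54 in BSM. Its BMDM levels ranked 12, 11 and 12 among all genes of those libraries, whereas BSM replicate 1 was lowest of all. The ratio of means was 544 and the log2 fold change 8.72 ± 0.51 (limma adjusted p = 1.22e-05). S100a11 made up 92.4%, 78.5% and 88.7% of the summed FPKM of the 8 members in the BMDM libraries. Without BSM replicate 1 its log2 fold change was 8.13, and without both that library and BMDM replicate 2 it was 8.06.

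S100a4 and S100a6 are linked to motility and the cytoskeleton. S100a4, also called metastasin, binds non-muscle myosin, and was at 44.2, 61.0 and 48.6 FPKM in BMDM and at 0, 0 and 0.0452 in BSM. It varied little among the BMDM libraries and was at or near 0 in BSM. The log2 fold change was 5.67 ± 0.23, with the smallest adjusted p among the members (limma adjusted p = 2.91e-06). S100a6, calcyclin, which binds annexins and the calcyclin-binding protein, was at 8.06, 10.7 and 8.27 FPKM in BMDM and at 0 in all BSM libraries. Its BMDM values were likewise close together, and its log2 fold change was 3.31 ± 0.24 (adjusted p = 3.38e-05). S100a4 and S100a6 lie next to each other but for S100a5, which was listed at 0.

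S100a1 and S100a13, the head-to-head neighbours, were the lowest members in BMDM. S100a1, best known as a regulator of calcium handling in muscle, was at 1.69, 5.54 and 2.81 FPKM in BMDM and at 0, 0.174 and 0.257 in BSM, with a ratio of means of 23.3. BMDM replicate 2 was again the highest, and BMDM replicates 1 and 3 were below the 3 FPKM minimum. The log2 fold change was 1.83 ± 0.38 (limma adjusted p = 0.00515).

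S100a13, which takes part in the release of interleukin-1 alpha and FGF1 without a signal peptide, was at 2.90, 4.54 and 3.07 FPKM in BMDM and at 1.28, 0.230 and 0.316 in BSM. It was the only member for which BSM replicate 1 was the highest BSM library. The ratio of means was 5.76 and the log2 fold change 1.52 ± 0.33 (limma adjusted p = 0.00645). The call of S100a13 was lost when the libraries were brought to the same distribution by quantile normalization (log2 fold change 0.72, adjusted p = 0.184) or to the same sum (0.79, adjusted p = 0.125). Relative to the median of all genes its difference was 0.72 in the deposited values, 0.70 with quantile normalization and 1.01 with equal sums. For the other 7 members the call held under every alternative run on FPKM, and the difference relative to that median lay between 1.03 for S100a1 and 7.92 for S100a11 in the deposited values.

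By median level in BMDM, which FPKM scales by transcript length, the order was S100a11, S100a4, S100a10, S100a9, S100a6, S100a8, S100a13 and S100a1. The BMDM libraries did not overlap between S100a11 and S100a4, between S100a4 and S100a10 or between S100a8 and S100a13. The remaining neighbours in this order overlapped. The members have short transcripts, from 486 bases in S100a8 to 731 in S100a6 in GENCODE M21, against a median of 3420.5 over the tested genes with a length. The level of short transcripts relative to longer ones depends on how each table corrects for length. The ALEXA-Seq value was 12.2 to 24.3 times the FPKM in BMDM among the members, against a median of 12.7 over 5686 genes.

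Stretches of S100a11 and S100a4 are also present in other genes. Gm12854 matched 58.1% of an S100a11 transcript at 95% identity or more, and Gm7665 also matched S100a11, over a share no larger than that. Gm42674, which overlaps S100a4, matched 74.4% of an S100a4 transcript. None of these genes has a row in either table, so reads shared with them could not be followed, and the levels of S100a11 and S100a4 are uncertain to that extent. No such match was found for the other 6 members.

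The genes with the most similar levels over the 6 libraries were found for each member by Euclidean distance on log2(FPKM + 1), which follows level as well as difference. Elane (distance 1.05) and Fcnb (1.07), both genes of granulocyte precursors, were nearest to S100a8, and Elane (1.21) and Hbb-b2 (1.70) to S100a9. C3, the complement component, was nearest to S100a4 (0.19), with Ldlrad3 (0.47) next. Itgb7, an integrin chain, and Cfp, properdin, were nearest to S100a6 (0.31 and 0.33). Rrm2, a subunit of ribonucleotide reductase, and Lmnb1, lamin B1, were nearest to S100a10 (0.44 and 0.49). Ifitm3 and Lyz2, abundant transcripts of myeloid cells, were nearest to S100a11 but at larger distances (1.54 and 3.16). Capn1, a calpain, was at 0.28 from S100a1, after ENSMUSG00000083907 at 0.26. Hist2h2ac was nearest to S100a13 (0.30), followed by ENSMUSG00000058492 (0.49).

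Partners onto which S100 proteins dock were counted in the same way. Of 15 listed partners and targets, 12 were tested, and 10 were called with BMDM above BSM, 1 with BSM above BMDM and 1 in neither direction, with a median log2 fold change of 2.68 against 0.81 for all genes. The share of all tested genes called with BMDM above BSM was 45.3%. Anxa1, Anxa2, Anxa6, Ahnak, Cnn2 and Iqgap1 were under 3 FPKM in every BSM library, and so entered the test through BMDM. Among the 2124 tested genes under that level in BSM, 74.8% were called higher in BMDM, with a median log2 fold change of 1.42. The S100a10 partner Anxa2 was at 23.7, 29.8 and 28.1 FPKM in BMDM and at 0, 0.0109 and 0.192 in BSM (log2 fold change 4.72 ± 0.23, limma adjusted p = 4.95e-06). Anxa1, the partner of S100a11, was at 18.3, 20.5 and 23.3 FPKM in BMDM and at 0, 0 and 0.0484 in BSM (4.41 ± 0.22, adjusted p = 6.28e-06). Both annexins were thus near 0 in BSM, and their groups did not overlap.

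Ahnak, a giant scaffold protein bound by S100a10 and annexin A2, had the largest difference of the list, at 137 ± 5.94 FPKM in BMDM and 0.12 ± 0.098 in BSM (SD, n = 3 each; log2 fold change 6.95). Iqgap1, a scaffold of the actin cytoskeleton, gave a log2 fold change of 4.77. Myh9, the non-muscle myosin heavy chain bound by S100a4, was present in both cell types, at 39.2, 87.6 and 47.5 FPKM in BMDM and 10.3, 9.96 and 8.35 in BSM (2.40 ± 0.32, limma adjusted p = 0.000677). Cacybp, the calcyclin-binding protein, was at 12.3, 10.2 and 10.2 FPKM in BMDM and 1.33, 2.44 and 3.11 in BSM (1.89 ± 0.28, adjusted p = 0.00102). The call of Cacybp was lost after scaling to the same sum (0.82, adjusted p = 0.0693), under which 8 of the 12 were higher in BMDM and 1 in BSM. With that scaling 973 of all 6364 genes were called higher in BMDM and 1582 higher in BSM.

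Il1a, which encodes the interleukin-1 alpha exported with S100a13, was the tested partner called higher in BSM. It was at 0.0175, 0 and 0.0877 FPKM in BMDM and at 13.7, 15.7 and 16.4 in BSM (log2 fold change -3.97 ± 0.22, limma adjusted p = 9.44e-06). This was the opposite direction to S100a13, and the groups did not overlap. Fgf1, also listed, did not reach the minimum, at no more than 0.0040 FPKM in BMDM and at 0.203, 0.233 and 0.192 in BSM. When all genes were tested without a minimum, Fgf1 was called higher in BSM (-0.27, limma adjusted p = 0.00166). In that fit 11 of the 15 partners and targets were called higher in BMDM and 2 higher in BSM. Of all 21167 genes in that fit, 3164 were called higher in BMDM and 712 higher in BSM.

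Receptors for released S100 proteins gave few calls. Of 7 listed receptors, 6 were in the table and 4 were tested, with a median log2 fold change of -0.29. By limma 0 of them were higher in BMDM, in FPKM or in the ALEXA-Seq values, and 0 at an unadjusted p under 0.05 in FPKM. Cd14, the co-receptor of Toll-like receptor 4, was at 0.352, 0.424 and 1.15 FPKM in BMDM and at 6.43, 4.63 and 4.35 in BSM (-1.92 ± 0.29, limma adjusted p = 0.00125). It was the only one of the 4 called in the deposited FPKM. Over all genes tested in FPKM, 45.3% were called higher in BMDM and 9.22% higher in BSM. Tlr4 was at 2.24, 2.30 and 2.18 FPKM in BMDM and 2.49, 5.26 and 5.86 in BSM, with a log2 fold change of -0.71 (adjusted p = 0.0799). In the ALEXA-Seq table, and in FPKM after each of the 3 scalings, Tlr4 was called higher in BSM, with adjusted p between 0.0027 and 0.0297, and it was also called without BSM replicate 1 (-1.02, adjusted p = 0.00333).

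Ly96, which encodes the MD-2 protein that pairs with Toll-like receptor 4, was at 23.5, 23.0 and 20.8 FPKM in BMDM and at 1.76, 18.4 and 15.7 in BSM, a log2 fold change of 1.28 (limma adjusted p = 0.143). Without BSM replicate 1 its log2 fold change was 0.38 (adjusted p = 0.0805). Bsg, basigin, gave 0.14 (adjusted p = 0.726), but was called higher in BSM after scaling to the same sum (-0.86, limma adjusted p = 0.0451). With that scaling 3 of the 4 tested receptors were called higher in BSM and 0 higher in BMDM. Of all 6364 genes, 1582 were then called higher in BSM and 973 higher in BMDM. Ager, the receptor for advanced glycation end products, was at no more than 0.193 FPKM in any library and Cd36 at no more than 0.829, so that neither reached the minimum. When all genes were tested without a minimum, Cd36 was called higher in BMDM (0.64, adjusted p = 0.0228) and Ager was not called (-0.05, adjusted p = 0.631).

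Other calcium sensors with EF-hands were split. Of 16 listed genes 9 were tested, and 6 were called with BMDM above BSM, 1 with BSM above BMDM and 2 in neither direction, with a median log2 fold change of 1.38. Over all genes tested, 45.3% were called with BMDM above BSM and 9.22% with BSM above BMDM, and the median was 0.81. Calm3, a calmodulin gene, was at 7.67, 15.2 and 10.6 FPKM in BMDM and 0.25, 0.87 and 0.792 in BSM (2.87 ± 0.31, limma adjusted p = 0.00024). Pdcd6, which encodes ALG-2, and Sri, sorcin, gave log2 fold changes of 2.19 and 1.99. Calm3 and Pdcd6 were under 3 FPKM in every BSM library, and so entered the test through BMDM. Among the 2124 tested genes under that level in BSM, 74.8% were called higher in BMDM. Aif1, which encodes the microglial marker Iba1, was lower in BMDM, at 2.50, 3.63 and 3.20 FPKM against 11.4, 19.5 and 17.3 in BSM (-2.03 ± 0.27, adjusted p = 0.000673). When the libraries were scaled to the same sum, 3 of the 9 were called with BMDM above BSM and 2 the other way, with a median of 0.08, and Pdcd6 was no longer called (adjusted p = 0.0997).

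S100b, the family member best known from astrocytes, was listed at 0 in all BMDM libraries and at 0, 0.103 and 0.0491 FPKM in BSM. S100g was at no more than 0.123 FPKM in any library, and S100z was listed at 0 in all 6. None of the 8 S100 genes outside the members reached the minimum for testing. S100pbp, which encodes a binding protein of another S100 protein and is no member of the family, was at 10.3, 13.1 and 11.9 FPKM in BMDM and 37.2, 12.2 and 11.98 in BSM (log2 fold change -0.56, limma adjusted p = 0.293).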

How the data were processed

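Sorted cells of 3 BMDM and 3 BSM sets were sequenced after amplification of the RNA. Per the labels, the authors used CASAVA 1.7.0, Bowtie 0.12.7, TopHat 1.3.1 and Cufflinks 1.0.3 with build mm9, and deposited FPKM for 35237 genes. The authors also deposited an ALEXA-Seq signal for 36536 genes, whose unit and normalization are not given in the sources used here. Neither table holds read numbers, so how many reads stand behind a gene's value is unknown. The mapped reads of each library, which the study lists, were not used here.

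The log2(FPKM + 1) values of the 6364 genes at 3 FPKM or more in any library were compared with limma 3.58.1 (mean-variance trend) in R 4.3.3, with Benjamini-Hochberg adjustment over all 6364 genes and a threshold of 0.05. The 6364 genes with the highest ALEXA-Seq signal were tested likewise. The step was tested on simulated data. Calls use no minimum fold change. Starts in the files were read as counted from 0, since 8257 of 18909 genes then matched the length of the GENCODE M21 gene, against 300 otherwise. Copies were sought with blastn 2.17.0 (at least 100 bases at 95% identity) in GENCODE M21 transcripts, promoters were from RefSeq, and tables and plots were made in Python 3.11.15 with pandas 2.3.3, numpy 2.4.6, scipy 1.17.1 and matplotlib 3.10.9.

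The members and the gene lists were chosen with earlier results of these data known. Named are the 8 members, every other S100 gene, the 2 nearest genes per member, up to 4 genes per list and direction with the largest change, and Anxa2, Anxa1, Ahnak, Myh9 and Cacybp, with further genes named after their values were seen, and some genes that the rule would name are not reported here. Alternatives were upper quartile, quantile and same-sum scaling, a pseudocount of 0.1, a minimum of 1 FPKM, no minimum, no trend, library quality weights, a replicate block, ALEXA-Seq in place of FPKM, and leaving out each library. The female libraries alone, and the omission of both BMDM replicate 2 and BSM replicate 1, were added after the data were seen.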

Additional observations from a re-analysis of the deposited data

How the results depend on the processing

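Of 144 values of the members' log2 fold changes under the alternatives, including ALEXA-Seq in place of FPKM, 142 kept their direction and their call and none changed sign. The exceptions were the quantile and same-sum scalings of S100a13, given above, and the cause was not tested. With ALEXA-Seq values, S100a13 also lost its call on scaling to equal sums (1.36, limma adjusted p = 0.105) and without BMDM replicate 2 (2.21, adjusted p = 0.0569). All 8 members were called in the female libraries alone and without both BMDM replicate 2 and BSM replicate 1. The number of genes called in FPKM was 3470 and lay between 2498 and 3932 when each library was left out in turn. The genes higher in BMDM fell from 2883 to 1380 with upper quartile scaling, 1378 with quantile normalization and 973 with equal sums, while those higher in BSM went from 587 to 1051, 1227 and 1582, and to 881 with library quality weights, whose estimation stopped before it converged. With these 3 scalings 56.8%, 52.9% and 38.1% of calls were higher in BMDM, against 83.1%. With ALEXA-Seq values, limma called 3050 genes, 5362 with library quality weights and between 1971 (without BMDM replicate 3) and 3984 (without BSM replicate 1) when each library was left out. The planned test of the S100a8 to S100a9 ratio between the groups is not given, since values at or near 0 in BSM leave no ratio there. Deviations of libraries with the same replicate number correlated at -0.02, -0.01 and 0.13 in FPKM, so the numbers were not taken to pair the samples. With a replicate block 3471 genes were called in FPKM and 2885 in ALEXA-Seq, all members included. Low values are limited by the reads behind them, which the tables do not give, and a value listed at 0 may be a failed estimate.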

Other observations

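Markers of other cells of the brain were scarce in both groups. The 6 perivascular macrophage genes summed to 1.77 to 2.76 FPKM in BMDM and 1.13 to 5.25 in BSM, and none reached the minimum for testing. Of 6 astrocyte genes only Slc1a3, a glutamate transporter, was tested, at 9.51, 5.18 and 6.71 FPKM in BSM and at most 0.0922 in BMDM (log2 fold change -2.95, limma adjusted p = 0.000131), while Gfap was listed at 0 in all 6 libraries. Of 6 oligodendrocyte genes, Mbp (2.04, adjusted p = 0.000504) and Cnp (0.95, adjusted p = 0.0407) were called higher in BMDM, only 1 of them after each of the 3 scalings, and Cnp lost its call in 5 of the 6 fits that left out a library, while the list summed to 7.06 to 12.8 FPKM in BMDM and 1.78 to 2.13 in BSM. Neuron, endothelial and fibroblast genes summed to at most 0.249, 1.92 and 0.0625 FPKM in any library, and none was tested. Of 7 lymphocyte genes 1 was tested, Nkg7, with a log2 fold change of 1.25 (adjusted p = 0.109), which was 0.54 (adjusted p = 0.0372) without BMDM replicate 2.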
